A study of Mus musculus with 4 samples.

Results

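Cholesterol and fatty acid synthesis were examined as a group of 30 genes in pancreatic islets, all 30 of them found by symbol among the 54532 genes of the table. They were taken by role: 18 enzymes of the route from acetyl-CoA to cholesterol (the sterol arm), 6 regulators and carriers of sterol supply, and 6 enzymes of fatty acid synthesis (the fatty acid arm). Transgenic 1 and transgenic 2 are libraries from islets of C57BL/6 males, 10 to 12 weeks old, that carry a miR-29a/b-1 transgene acting in pancreatic beta cells. They were set against wild type 1 and wild type 2, from islets of wild-type males of the same strain and age. The labels name neither the promoter of the transgene nor whether a library holds islets of 1 mouse or of a pool. A p-value here therefore measures the spread between libraries, which may be technical, and beta cells are only part of an islet. The comparison asks whether extra miR-29a and miR-29b-1 in beta cells go with other levels of these genes, and whether the sterol arm and the fatty acid arm differ in that.

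Both routes start from acetyl-CoA in the cytosol. The sterol arm builds mevalonate, isoprenoids, squalene and lanosterol, and then trims lanosterol to cholesterol. The fatty acid arm makes malonyl-CoA, palmitate, and longer or desaturated fatty acids. Both are switched on by SREBP transcription factors, which the escort protein SCAP carries from the endoplasmic reticulum to the Golgi for cleavage when sterol is scarce, while INSIG proteins hold them back. In beta cells, citrate leaving the mitochondria feeds cytosolic acetyl-CoA and malonyl-CoA, which have been studied as signals in insulin secretion.

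Levels are FPKM, fragment counts that the authors scaled to gene length and by 1 factor per library. Folds are differences of log2(FPKM + 1), transgenic minus wild type, which understate changes of low genes. The reads behind the values summed to between 21670854 and 27080907 per library. Of all genes, 12716 reached at least 1 FPKM in at least 2 libraries and were compared, among them 27 of the 30. Fdps, Hsd17b7 and Scd1 did not reach it. The summed FPKM of 6 beta cell markers made up 38.3% and 53.0% of all FPKM in transgenic 1 and 2, against 48.0% and 54.5% in wild type 1 and 2. Nearly all of that sum was Ins1, Ins2 and Iapp, so it does not measure beta cell content. By genotype fold, 4 of the 6 markers were negative and 2 positive (Mafa at 0.42 and Nkx6-1 at 0.31). Of 6 fat cell markers, Plin1 and Lep had 0 reads in every library and Adipoq had 1 read in wild type 2 and 0 in the others, where a count of 0 allows up to 3 reads. Car3 and Cfd had at most 8 reads in any library. Fabp4, which other cells such as capillary endothelium also express, had 1.10 and 1.51 FPKM in transgenic 1 and 2, against 1.89 and 1.26 FPKM in wild type 1 and 2. The summed FPKM of the 6 was 1.25 and 1.74 in transgenic 1 and 2, against 2.08 and 1.42 in wild type 1 and 2. The summed FPKM of 7 acinar (exocrine) markers was 4020 and 1152 in transgenic 1 and 2, against 2964 and 649.5 in wild type 1 and 2, so it was higher in the libraries numbered 1 and, within a number, in transgenic islets. That of 4 endothelial markers was 91.3 and 66.8 in transgenic 1 and 2, against 69.6 and 54.4 in wild type 1 and 2. Most of the endothelial sum was Plvap, and of the 4 genotype folds 3 were positive and 1 negative (Pecam1 at -0.08). The part of these other cells in the differences below was not tested. In bulk RNA, fewer cells of a type and less RNA per cell cannot be told apart.

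The transgene's product acts through a seed, the bases at positions 2 to 8 of the mature microRNA, in capitals here. The sequences are RefSeq's on GRCm38.p6, and both members of the transgene share 1 seed.
miR-29a-3p: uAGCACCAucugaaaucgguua
miR-29b-3p: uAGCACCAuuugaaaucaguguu
The 7 bases that pair with this seed were searched in the longest annotated 3' UTR of each gene (GENCODE M21, GRCm38). They occurred in 5 of the 30 genes, which is 16.7%, against 1665 of the 10700 protein-coding genes compared that had a 3' UTR, which is 15.6%. The 30 include Fdps, Hsd17b7 and Scd1, which were not among the genes compared, and Scd1 holds a match. The median 3' UTR length was 1507.5 bases in the 30 genes and 1200 in the 10700. The matches, in capitals, are shown with neighbouring bases as places in these 3' UTRs where the transgene's product could pair. Other forms of pairing were not searched.
Hmgcs1, chr13:119707561-119707590, plus strand: gcaagttctctggatgattttTGGTGCTga
Fdft1, chr14:63146575-63146604, minus strand: gatgccttgccctcagcagccTGGTGCTgg
Cyp51, chr5:4082227-4082256, minus strand: agaatagctctgttgctggagTGGTGCTgc
Insig1, chr5:28077178-28077207, plus strand: tgcccaaaggagggaggttgaTGGTGCTta
Scd1, chr19:44397565-44397594, minus strand: gttttgatgctagggtgagcaTGGTGCTca
None of the 5 matches was followed by an A, the base that extends a match to its strongest form. A match is a description of the letters and not a shown site.

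Levels spanned a wide range. Acly, the enzyme that splits citrate into acetyl-CoA and so feeds both arms, was the highest member, above 99.2% of the genes compared by its mean over the 4 libraries, 207 FPKM. It lay at 212 and 227 FPKM in transgenic 1 and 2, against 170.3 and 219 FPKM in wild type 1 and 2. The next steps of fatty acid synthesis were far lower per length: Acaca, which makes malonyl-CoA, had 1.54 and 1.59 FPKM in transgenic islets and 1.56 and 1.62 FPKM in wild-type islets. Fasn, which makes palmitate, had 8.54 and 7.05 FPKM in transgenic islets and 7.16 and 6.55 FPKM in wild-type islets. Acly thus stood well above both Acaca and Fasn in every library. Of the desaturases, Scd2 lay at 15.1 and 12.2 FPKM in transgenic 1 and 2, against 14.1 and 14.4 FPKM in wild type 1 and 2, while Scd1 had 38, 51, 17 and 57 reads in transgenic 1, transgenic 2, wild type 1 and wild type 2, or 0.305 and 0.502 FPKM in transgenic islets and 0.147 and 0.455 FPKM in wild-type islets. Scd2, the form best known from brain, thus lay above Scd1, the form best known from liver and fat, in every library. These paralogs share 4.66% of Scd1's and 4.01% of Scd2's stretches of 50 bases with transcripts of other genes. Elovl6, which lengthens palmitate, lay at 4.92 and 6.48 FPKM in transgenic 1 and 2, against 5.99 and 7.10 FPKM in wild type 1 and 2.

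**Figure D1:**
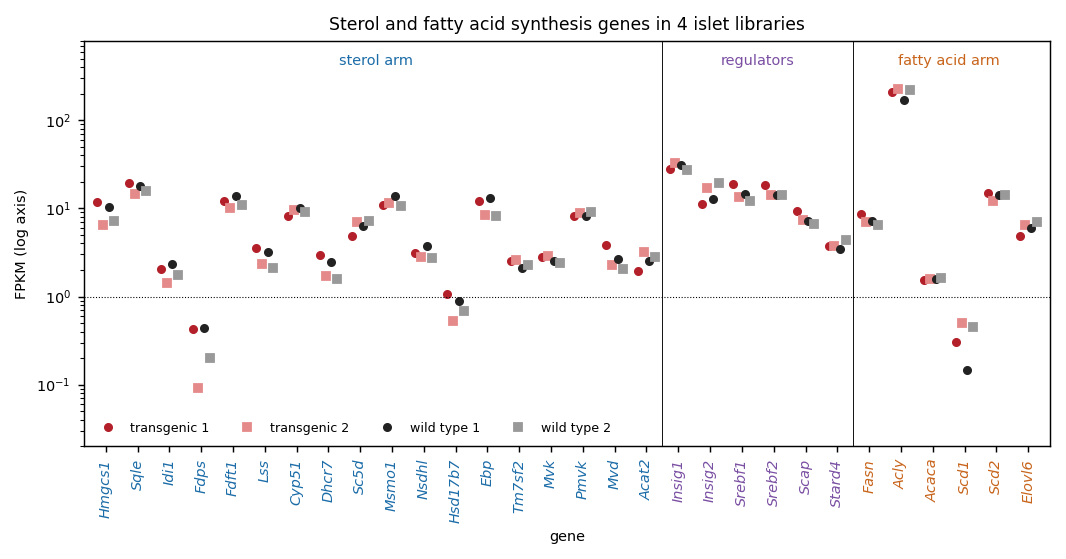
FPKM of the 30 genes (log axis, dotted line at 1 FPKM) in transgenic 1 and 2 and wild type 1 and 2, with each point a library. Acly lies at 212 and 227 in transgenic 1 and 2 and at 170.3 and 219 in wild type 1 and 2, while Fdps and Scd1 lie below 1 in all 4.

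In the sterol arm the highest members were Sqle, Msmo1, Fdft1, Ebp, Cyp51 and Hmgcs1, with means over the 4 libraries between 8.90 and 16.9 FPKM. Among the regulators Insig1 led, with a mean of 29.9 FPKM. This order depends on the gene length in the table, which exceeds the longest coding transcript of GENCODE M21 by a factor of up to 3.73 (median 1.30). Rescaled to that transcript, Msmo1 would have a mean of 35.6 in place of 11.8 FPKM, Sqle 34.0 in place of 16.9, and Tm7sf2 8.85 in place of 2.37. FPKM ratios between libraries do not depend on this length, but folds of log2(FPKM + 1) and the filter at 1 FPKM do. Fdps, the synthase of farnesyl diphosphate, had only 47 and 8 reads in transgenic 1 and 2, against 44 and 22 in wild type 1 and 2. Of the stretches of 50 bases of its coding transcript, 86.4% also occur in transcripts of 8 other genes, so counting may have left out or split its reads, and its level is uncertain. Acaca, Acat2, Idi1 and Fdft1 share 52.6%, 45.9%, 21.3% and 10.8% in the same way and are uncertain to that extent. Fdft1, Cyp51 and Srebf1 overlap the protein-coding genes Ctsb, Akap9 and Rai1 on the other strand, and Tm7sf2 overlaps Vps51 on its own strand. Strand use in counting was not given in the sources used here.

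In transgenic against wild-type islets, no member of either arm passed the test. The folds over all 4 libraries ran from -0.19 (Insig2) to 0.25 (Mvd), with standard errors of 0.13 to 0.33 (n = 2 libraries per group). Limma with adjustment over all 12716 genes called 0 of the 27 members, against 0% of all genes, and the adjusted p was 1.00 for each member. Without adjustment, limma had 0 members and 83 genes at a p under 0.05. Voom, run on reads recovered from the FPKM, also called 0 genes, with 32 at an unadjusted p under 0.05. Voom with the library number as a term, which leaves 1 residual degree of freedom, called 1.71% of all genes and 0 members. In that fit 5 members had an unadjusted p under 0.05. The count over all genes is not given here, so the 5 are not read as a result. Srebf1 and Scap had positive folds, and Sc5d, Insig2 and Elovl6 negative ones (adjusted p at least 0.148). After a fitted dependence on GC content was subtracted from each library, their folds were 0.07, 0.06, -0.11, -0.16 and -0.13, with unadjusted p of at least 0.104. Fdft1 alone among members was then under 0.05, at a fold of -0.21 (voom unadjusted p = 0.0392, adjusted p = 0.741). The sterol arm had a median fold of -0.03 over its 16 genes compared, the regulators 0.11 over 6, and the fatty acid arm -0.01 over 5, beside 0.01 over all genes compared. By number, the medians in the sterol arm were -0.04 in number 1 and 0.05 in number 2, those of the regulators 0.21 and 0.06, and those of the fatty acid arm 0.09 and -0.01. Spread between libraries of 1 genotype was large next to these folds, so a difference of the size of the standard errors could not be told from none.

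Of the early enzymes, up to squalene, none passed the test. Acat2, the cytosolic thiolase that opens the route, had 1.95 and 3.18 FPKM in transgenic islets and 2.52 and 2.80 FPKM in wild-type islets. Hmgcs1, the synthase of hydroxymethylglutaryl-CoA, had 11.7 and 6.50 FPKM in transgenic islets and 10.3 and 7.12 FPKM in wild-type islets. Both genotypes overlapped in both genes, and for Hmgcs1 the libraries numbered 1 were the high ones in each genotype. Mvk, the mevalonate kinase, had 2.78 and 2.85 FPKM in transgenic islets and 2.55 and 2.39 FPKM in wild-type islets, and here both transgenic libraries lay above both wild-type ones by a fold of 0.14 ± 0.13 (standard error, n = 2 per group; limma adjusted p = 1.00). Pmvk, the next kinase, had 8.17 and 8.86 FPKM in transgenic islets and 8.10 and 9.10 FPKM in wild-type islets. Mvd, the decarboxylase that follows, had 3.88 and 2.28 FPKM in transgenic islets and 2.68 and 2.07 FPKM in wild-type islets, and only transgenic 1 stood apart. Idi1, the isopentenyl diphosphate isomerase, had 2.04 and 1.41 FPKM in transgenic islets and 2.34 and 1.76 FPKM in wild-type islets. Fdft1, squalene synthase, had 12.3 and 10.1 FPKM in transgenic islets and 13.8 and 11.0 FPKM in wild-type islets. In Idi1 and Fdft1 each transgenic library lay below the wild-type library of its number, while the groups overlapped across numbers. Mvk, Pmvk and Mvd have GC contents of 56.3%, 57.0% and 59.0%. With number in the voom model their folds were 0.17, -0.03 and 0.36, and after a fitted dependence on GC content was subtracted from each library they were 0.04, -0.17 and 0.16.

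Of the later enzymes, none passed either. Sqle, which oxidises squalene, lay at 19.6 and 14.6 FPKM in transgenic 1 and 2, against 17.9 and 15.6 FPKM in wild type 1 and 2. Lss, which closes the sterol rings, lay at 3.54 and 2.33 FPKM in transgenic 1 and 2, against 3.24 and 2.09 FPKM in wild type 1 and 2. In both genes the groups overlapped and number 1 was the higher one in each genotype. Cyp51, the first demethylase of lanosterol, had 8.21 and 9.55 FPKM in transgenic islets and 10.1 and 9.14 FPKM in wild-type islets. Tm7sf2, a sterol reductase, had 2.50 and 2.58 FPKM in transgenic islets and 2.13 and 2.28 FPKM in wild-type islets, with both transgenic libraries above both wild-type ones (fold 0.14 ± 0.13, standard error, n = 2 per group; limma adjusted p = 1.00). Msmo1, the methylsterol oxidase, had 11.0 and 11.6 FPKM in transgenic islets and 14.0 and 10.7 FPKM in wild-type islets, and its fold was -0.32 in number 1 and 0.10 in number 2. Nsdhl and Hsd17b7 act on the same methyl groups. Nsdhl had 3.15 and 2.82 FPKM in transgenic islets and 3.70 and 2.70 FPKM in wild-type islets, and Hsd17b7 had 1.06 and 0.522 FPKM in transgenic islets and 0.895 and 0.688 FPKM in wild-type islets. Ebp, the sterol isomerase, had 12.1 and 8.32 FPKM in transgenic islets and 13.0 and 8.30 FPKM in wild-type islets. In Ebp the libraries numbered 1 were the high ones in each genotype. Sc5d, the desaturase after it, had 4.90 and 6.92 FPKM in transgenic islets and 6.37 and 7.11 FPKM in wild-type islets. Dhcr7, the last reductase, had 2.93 and 1.72 FPKM in transgenic islets and 2.45 and 1.58 FPKM in wild-type islets. The groups overlapped in these last 5 genes.

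Among the regulators, 3 genes had folds above 0.3 in number 1, and none passed. Srebf1, which mainly drives fatty acid genes, lay at 19.0 and 13.5 FPKM in transgenic 1 and 2, against 14.6 and 12.2 FPKM in wild type 1 and 2, a fold of 0.36 in number 1 and 0.13 in number 2. Srebf2, which mainly drives sterol genes, lay at 18.5 and 14.1 FPKM in transgenic 1 and 2, against 14.1 and 14.1 FPKM in wild type 1 and 2, with 0.37 in number 1 and -0.00 in number 2. Transgenic 1 alone was high in Srebf2, and the other 3 libraries lay together. Scap lay at 9.41 and 7.35 FPKM in transgenic 1 and 2, against 7.29 and 6.67 FPKM in wild type 1 and 2, with 0.33 in number 1 and 0.12 in number 2, and its groups did not overlap. These 3 genes have GC contents of 57.9% to 59.1%. With number in the voom model their folds were 0.25, 0.18 and 0.24. After the subtraction for GC content they were 0.07, 0.02 and 0.06. Insig1, a brake that SREBP itself induces and whose 3' UTR holds a seed match, lay at 28.0 and 32.6 FPKM in transgenic 1 and 2, against 31.4 and 27.6 FPKM in wild type 1 and 2, with opposite folds of -0.16 and 0.24 by number. Insig2, the brake that is not itself a classic SREBP target, lay at 11.2 and 16.9 FPKM in transgenic 1 and 2, against 12.8 and 19.6 FPKM in wild type 1 and 2, and was lower in the transgenic library of each number, by folds of -0.18 and -0.20. Stard4, a carrier of sterol between membranes, lay at 3.76 and 3.72 FPKM in transgenic 1 and 2, against 3.45 and 4.34 FPKM in wild type 1 and 2.

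The fatty acid enzymes, whose levels are given above, had folds of 0.18 ± 0.21 for Acly, 0.16 ± 0.15 for Fasn, -0.01 ± 0.15 for Acaca, -0.06 ± 0.16 for Scd2 and -0.18 ± 0.18 for Elovl6 (standard error, n = 2 per group). For Acly, wild type 1 was the low library and the other 3 lay between 212 and 227 FPKM. The fold of Fasn, a gene of 57.9% GC, was 0.17 with number in the voom model and 0.00 after the same subtraction. The 4 members with a match that were compared, Hmgcs1, Fdft1, Cyp51 and Insig1, had genotype folds of 0.03, -0.14, -0.10 and 0.04. Scd1, the other member with a match, was below the level compared.

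By sign, 9 members were higher in the transgenic library of both numbers, 6 were lower in both, and 12 went opposite ways. Of all 12716 genes compared, 4265 were higher in both and 3482 lower in both. The split of the members by sign is not read as a result about them. Groups did not overlap, with transgenic islets higher, in 3 members (Mvk, Tm7sf2 and Scap), and this held for 12.2% of all genes compared. They did not overlap, with transgenic islets lower, in 0 members, against 9.03% of all genes. As shares of the 27 members, both counts without overlap lie near or below those of all genes.

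**Figure D2:**
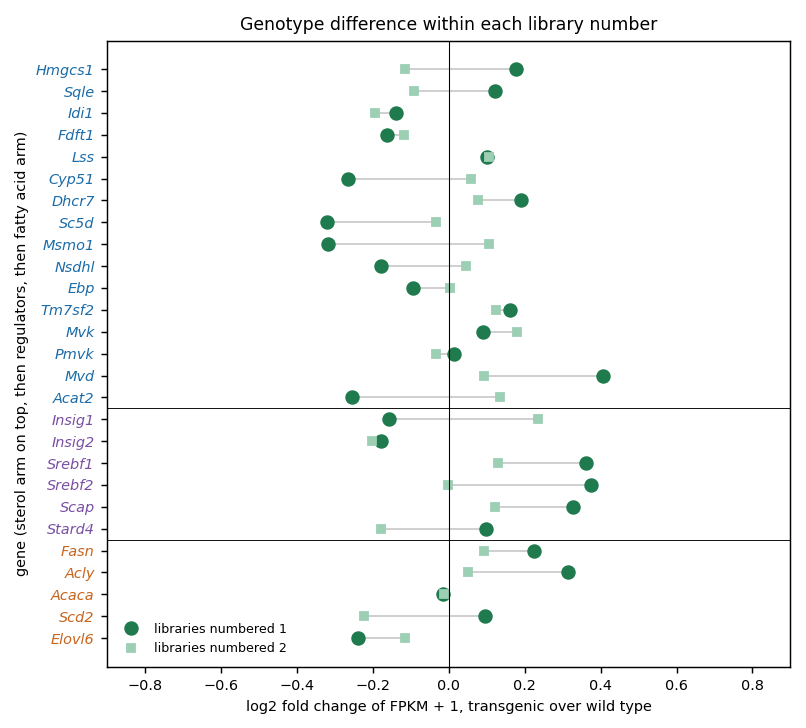
Log2 fold change of FPKM + 1, transgenic over wild type, for the 27 genes compared (sterol arm at the top, then regulators, then fatty acid arm), with circles for number 1 and squares for number 2. Points lie between -0.32 and 0.41, and in 12 genes the numbers fall on opposite sides of 0.

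The other genes of these pathways were taken from a list of 57, and 0 of the 52 compared passed in limma in either direction (adjusted p = 1.00 for each gene named here). The largest folds upward were those of Slc25a1, the mitochondrial citrate carrier (0.28 ± 0.19, standard error, n = 2 per group), Mid1ip1, an activator of acetyl-CoA carboxylase (0.22 ± 0.21), and Mlxipl, a glucose-responsive transcription factor of lipogenic genes (0.22 ± 0.41). Slc25a1 had 34.5 and 26.6 FPKM in transgenic islets and 24.9 and 24.7 FPKM in wild-type islets, with no overlap, and a fold of 0.46 in number 1 and 0.10 in number 2. The largest downward were those of Erg28, a scaffold of sterol demethylation (-0.24 ± 0.32), Elovl7, a fatty acid elongase (-0.22 ± 0.19), and Ggps1, the geranylgeranyl diphosphate synthase (-0.18 ± 0.15). This order changed when GC content was allowed for. With number in the voom model, Slc25a1, Mid1ip1, Mlxipl and Ggps1 had folds of 0.28, 0.22, 0.21 and -0.21, and after the subtraction for GC content 0.09, 0.09, 0.08 and -0.06. The largest upward folds were then those of Scarb1, Gpam and Lpin1, at 0.29, 0.22 and 0.20, and none passed (adjusted p at least 0.658).

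Between library numbers 5 members passed the test, where 0 did between genotypes. The titles number the libraries 1 and 2 in each genotype without saying what the number marks, and the number 2 libraries are set against the number 1 libraries here to describe that spread. Limma with number as the only term called 1 member higher in number 2 and 4 lower, so 5 of 27, or 18.5%, against 20.7% of all genes (10.1% higher and 10.6% lower). The share of members is thus near that of all genes, and the number of calls says nothing particular to this pathway. Acinar markers, with the sums given above, were lower in number 2 in both genotypes (6 of the 7 called lower), and their part in what follows was not tested.

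The 4 members lower in number 2 were all sterol enzymes. Hmgcs1 had 6.50 and 7.12 FPKM in the transgenic and wild-type libraries numbered 2, against 11.7 and 10.3 FPKM in those numbered 1. The libraries numbered 2 were the low ones in both genotypes, with a fold of -0.62 ± 0.10 (standard error, n = 2 per number; limma adjusted p = 0.0166). Ebp had 8.32 and 8.30 FPKM in the transgenic and wild-type libraries numbered 2, against 12.1 and 13.0 FPKM in those numbered 1, a fold of -0.54 ± 0.09 (limma adjusted p = 0.0153). Lss had 2.33 and 2.09 FPKM in the transgenic and wild-type libraries numbered 2, against 3.54 and 3.24 FPKM in those numbered 1, a fold of -0.45 ± 0.10 (limma adjusted p = 0.0315). Dhcr7 had 1.72 and 1.58 FPKM in the transgenic and wild-type libraries numbered 2, against 2.93 and 2.45 FPKM in those numbered 1, a fold of -0.48 ± 0.11 (limma adjusted p = 0.0372). None of these genes has overlapping numbers. The member higher in number 2 was Insig2, with 16.9 and 19.6 FPKM in the transgenic and wild-type libraries numbered 2, against 11.2 and 12.8 FPKM in those numbered 1, a fold of 0.56 ± 0.12 (limma adjusted p = 0.0270). Leaving out 1 library ended calls: without transgenic 1 only Ebp was called and without wild type 2 only Hmgcs1, while without transgenic 2 Insig2, Ebp and Hmgcs1 were. Without wild type 1 these 3 and Mvd were called, and Lss and Dhcr7 were not.

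The arms are given side by side, and their difference was not tested. In the sterol arm the median fold of number 2 over number 1 was -0.26, with -0.19 in transgenic and -0.27 in wild-type libraries, beside 0.01 over all genes. Number 2 lay below number 1 without overlap in 9 of its 16 genes and above it in 3, against 32.4% and 34.4% of all genes. The 22 other sterol genes compared are not all synthesis enzymes, and include the exporter Abca1 and the binding protein Osbp. They did not share the shift of the sterol arm, with a median of 0.05, 6 lower without overlap and 8 higher. The 30 other fatty acid genes compared had a median of -0.02, with 10 lower without overlap and 12 higher. Among the 6 regulators 1 was lower without overlap (Srebf1) and 1 higher (Insig2), with a median of -0.08. In the fatty acid arm the median was 0.03, with 1 of 5 genes lower without overlap (Fasn) and 3 higher (Acly, Acaca and Elovl6). That median is the fold of Acaca. The other folds were -0.18 for Fasn, -0.13 for Scd2, 0.23 for Acly and 0.27 for Elovl6. Limma called 0 of the 5, with 0 at an unadjusted p under 0.05, and voom called 0, with 1 (Elovl6). The mean log2(FPKM + 1) of the sterol arm minus that of the fatty acid arm was -1.07 and -1.21 in transgenic 1 and 2, against -0.96 and -1.28 in wild type 1 and 2. The genotypes overlap in this difference and the numbers do not. No test of these means was made, since the members were chosen with earlier results of these data known.

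**Figure D3:**
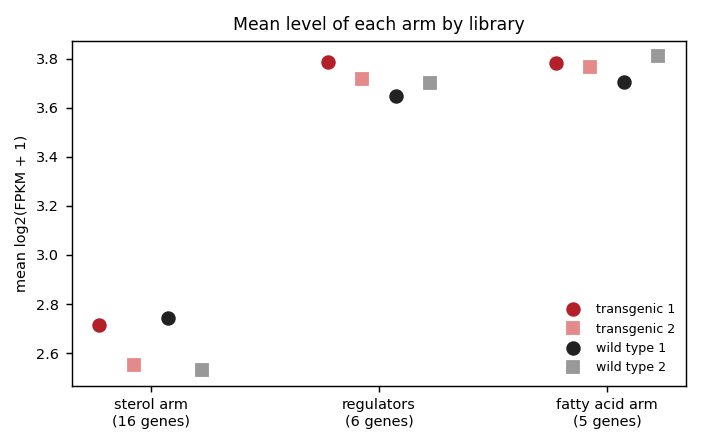
Mean log2(FPKM + 1) of the genes compared in each arm (16, 6 and 5 genes), with a point for each library. In the sterol arm the libraries numbered 2 lie at 2.55 (transgenic) and 2.53 (wild type), below 2.71 and 2.74 for those numbered 1, while in the fatty acid arm the numbers overlap.

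**Figure D4:**
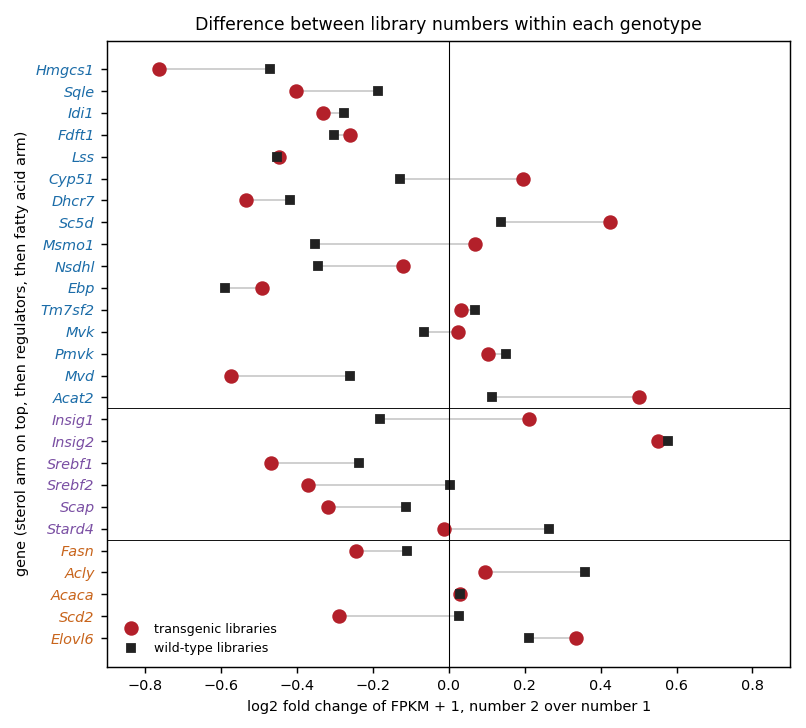
Log2 fold change of FPKM + 1, number 2 over number 1, for the 27 genes compared, with circles for transgenic and squares for wild-type libraries. Hmgcs1, Lss, Dhcr7 and Ebp lie at or below -0.42 in both genotypes, and Insig2 lies at 0.55 and 0.58.

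Voom on recovered reads called 7 members, or 25.9%, against 29.1% of all genes, adding Sqle and Srebf1 to the 5. Further sterol enzymes lay below number 1 in number 2 in both genotypes without passing in limma. Sqle had a fold of -0.30 ± 0.10, Fdft1 -0.28 ± 0.10, Idi1 -0.30 ± 0.12, Mvd -0.42 ± 0.15 and Nsdhl -0.23 ± 0.10 (limma adjusted p between 0.0813 and 0.159), and Srebf1 among the regulators had -0.35 ± 0.14 (adjusted p = 0.130). Sc5d, Acat2 and Pmvk went the other way, at 0.28 ± 0.13, 0.31 ± 0.12 and 0.13 ± 0.08. Of the 52 other pathway genes compared, limma called 5 higher and 4 lower, where 10.1% of all genes were called higher and 10.6% lower, so these counts lie near or below the share of all genes. Higher were Erg28 (0.63 ± 0.13), Thrsp, a lipogenic protein of liver and fat (0.59 ± 0.15), Hacd3, a dehydratase of fatty acid elongation (0.55 ± 0.11), Mcat, of mitochondrial fatty acid synthesis (0.52 ± 0.11), and Abca1, the cholesterol exporter (0.43 ± 0.09). Lower were Mlxipl (-0.80 ± 0.13), Me1, the malic enzyme that yields NADPH (-0.44 ± 0.11), Tmem97, a sterol-binding protein (-0.42 ± 0.10), and Osbp, an oxysterol-binding protein (-0.37 ± 0.09). Limma adjusted p for these 9 lay between 0.0162 and 0.0468. Mlxipl had 42.0 and 37.8 FPKM in the transgenic and wild-type libraries numbered 2, against 77.7 and 62.9 FPKM in those numbered 1.

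Promoter letters were not used to choose the genes. RefSeq promoters on GRCm38.p6, from 250 bases before to 50 after each annotated start, were at hand for 24 members. They were searched on both strands for CCAAT, the box bound by the factor NF-Y that works beside SREBP, and for TCACNCCAC, a form of the sterol regulatory element bound by SREBP itself. CCAAT and the sterol element do not overlap in Hmgcs1. CCAAT was found in 20 of the 24, which is 83.3%, against 41.0% of all 26742 genes in that table, where a gene counts if any of its starts holds a match. Those genes were limited neither to protein-coding genes nor to the genes compared, while all members are protein coding. The 83.3% and 41.0% are thus shares of unlike sets. By group, CCAAT was found in 14 of 15 sterol genes (all but Acat2), 4 of 5 regulators (all but Scap) and 2 of 4 fatty acid genes (Fasn and Acly). The sterol element was found only in Hmgcs1 among the members and in 1.43% of all genes. These are descriptions of letters in a window, and no match says only that the letters are not in it.

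The promoter of Hmgcs1 is shown whole because it holds both motifs, with the sterol element beginning at position -137 and CCAAT boxes beginning at positions -237, -176, -45 and 10 from the start, all on the opposite strand, so that they read ATTGG. Those of the other 4 members called between numbers, and of Fasn for the fatty acid arm, are shown from 150 bases before the start to 9 after it. Capitals mark the matches, and CCAATTGG in Fasn holds a match on each strand, overlapping.
Hmgcs1, chr13:119690101-119690400, plus strand: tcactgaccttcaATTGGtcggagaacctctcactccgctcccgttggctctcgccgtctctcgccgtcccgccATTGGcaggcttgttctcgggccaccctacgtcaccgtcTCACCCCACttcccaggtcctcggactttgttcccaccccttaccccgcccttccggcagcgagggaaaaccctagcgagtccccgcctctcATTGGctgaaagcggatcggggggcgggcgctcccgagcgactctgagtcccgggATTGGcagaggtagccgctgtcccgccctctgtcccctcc
Lss, chr10:76531455-76531614, plus strand: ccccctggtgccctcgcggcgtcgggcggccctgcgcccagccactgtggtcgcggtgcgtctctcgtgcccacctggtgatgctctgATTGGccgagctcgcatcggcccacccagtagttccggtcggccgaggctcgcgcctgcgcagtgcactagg
Dhcr7, chr7:143830064-143830223, plus strand: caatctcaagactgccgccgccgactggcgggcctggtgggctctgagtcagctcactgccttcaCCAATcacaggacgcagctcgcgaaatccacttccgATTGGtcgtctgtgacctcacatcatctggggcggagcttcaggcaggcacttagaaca
Ebp, chrX:8193503-8193662, minus strand: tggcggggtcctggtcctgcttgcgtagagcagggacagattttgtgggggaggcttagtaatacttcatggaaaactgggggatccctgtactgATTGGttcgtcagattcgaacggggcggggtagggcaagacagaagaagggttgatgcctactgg
Insig2, chr1:121332580-121332739, minus strand: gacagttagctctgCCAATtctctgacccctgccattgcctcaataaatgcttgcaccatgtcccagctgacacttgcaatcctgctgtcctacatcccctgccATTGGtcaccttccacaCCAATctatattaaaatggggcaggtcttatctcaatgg
Fasn, chr11:120824538-120824697, minus strand: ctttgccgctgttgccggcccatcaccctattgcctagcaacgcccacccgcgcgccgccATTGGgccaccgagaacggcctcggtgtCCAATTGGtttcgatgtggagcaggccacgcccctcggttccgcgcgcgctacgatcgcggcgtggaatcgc
Hmgcs1, Lss, Dhcr7 and Ebp, the members lower in number 2, each hold a box shortly before a start, with the nearest upstream one beginning at -45, -62, -49 and -55, and so does Insig2, which was higher, at -29. Sterol genes not called also hold such boxes, with the nearest upstream one beginning at -55 in Msmo1, -47 in Tm7sf2 and -24 in Sc5d. Pmvk holds one only at -136, and Acat2 holds none. A box at such a place is thus not particular to the genes called. Dhcr7 and Insig2 have 3 annotated starts each, and 1 of the 3 holds matches in each gene.

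**Figure D5:**
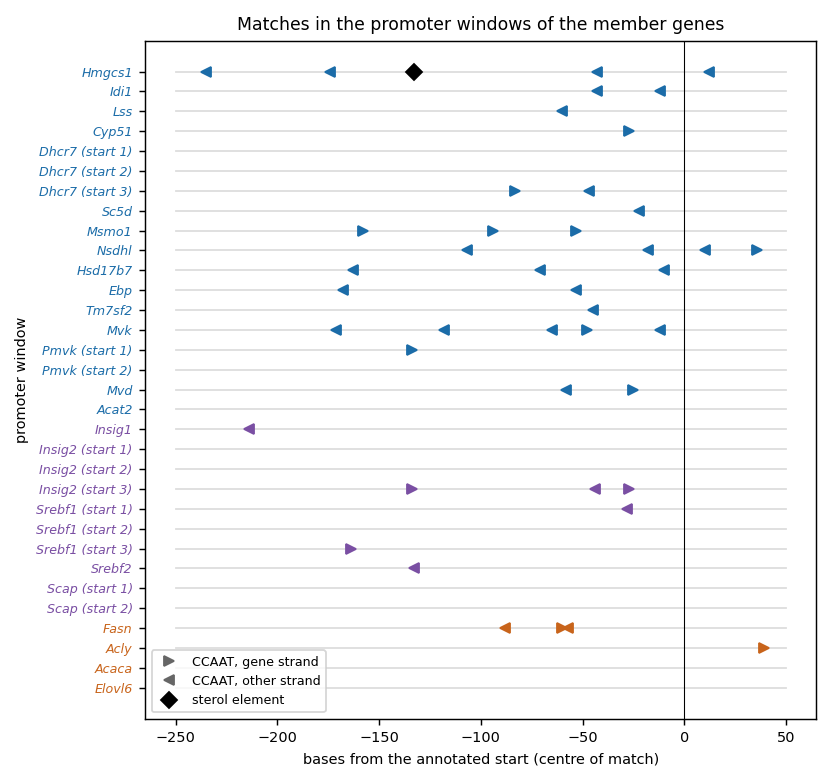
Positions of CCAAT (triangles, pointing along the strand of the match) and of the sterol element (diamond) from the annotated start, in bases, for each promoter window of 24 member genes. CCAAT matches lie in 20 genes, and the sterol element lies in Hmgcs1 alone.

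Positions on GRCm38 of the members called between numbers, as the table gives them, are as follows. Hmgcs1 lies on chromosome 13 from 119690379 to 119708260, and Ebp on chromosome X from 8185329 to 8193512. Lss lies on chromosome 10 from 76531588 to 76557138, Dhcr7 on chromosome 7 from 143823145 to 143848410, and Insig2 on chromosome 1 from 121304353 to 121332589. All are annotated as protein coding.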

How the data were processed

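Islet RNA was sequenced in 4 libraries, from total RNA with an Illumina TruSeq kit per the labels' protocols. The submitters' processing notes name HTSeq 0.6.0 and GRCm38. The aligner was not given in the sources used here. FPKM and gene length were deposited by the authors for 54532 genes. FPKM times length came within 0.001 of a whole multiple of 1 step per library for 100% of values above 0, and the multiples served as read numbers, 21670854 to 27080907 per library. Floors (3 reads) cover counting error only.

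Genes with at least 1 FPKM in at least 2 libraries were fitted with limma 3.58.1 in R 4.3.3 on log2(FPKM + 1), with empirical Bayes moderation and an intensity trend. Tests were 2-sided at a threshold of 0.05, with p-values adjusted by Benjamini-Hochberg over all 12716. Genotype, or library number, was the only term. Voom in limma used the recovered reads with median-ratio library sizes, also with number as a term, and after a lowess curve (span 0.3) on the GC content of each gene had been subtracted. With 2 against 2 libraries the smallest 2-sided p of an exact permutation is 0.333, so none is given. Alternatives were another pseudocount, other filters, median-ratio scaling and leaving out each library. The median-ratio factors of the FPKM lay between 0.990 and 1.007, so that scaling could change little. All 30 members are named. Other pathway genes are named where called, or as the 3 largest folds in each direction. The members, lists and tests were chosen with earlier results of these data known. The fits were also run on simulated data, but the outcome is not given here and no result rests on it.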

Additional observations from a re-analysis of the deposited data

How the results depend on the processing

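No member was called between genotypes under any setting run, and no called member changed direction under any setting in either comparison. Between genotypes limma called 0 genes, and voom with the replicate block (library number as a term) called 217 (176 higher, 41 lower), or 73 (59 and 14) with the GC curve removed, and the other settings, limma with the replicate block among them, called 0. Same-numbered libraries deviated together from their genotype means (Pearson's r 0.775 over 12716 genes), but with 2 pairs the numbers are not shown to pair the samples. The genotype medians went to 0.051 without a filter and 0.047 above 5 FPKM in the fatty acid arm (-0.028 to 0.081 when leaving out a library). They went to 0.19 above 5 FPKM and 0.041 in voom with block and GC curve removed for the regulators (0.038 to 0.17), and ranged from -0.12 to 0.11 in the sterol arm when leaving out a library.

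Between numbers, 2630 genes and 5 members were called. Without a filter 274 genes and 0 members were called. Leaving out a library gave 835 to 1822 genes and 1 to 4 members. Voom with genotype as a second term, added after seeing the data, called 5560 of 12716 genes and 14 of 27 members. With the GC curve also removed it called 5114 genes and 12 members. Limma above 5 FPKM called 3 members, and its share of all genes is not given here, so that count is not read further. The sterol median was -0.30 with a pseudocount of 0.1, -0.29 without a filter, -0.21 above 5 FPKM, -0.31 in voom, -0.32 in voom with genotype, -0.31 with the GC curve also removed, and -0.28 to -0.17 when leaving out a library. The regulators' median was -0.18 above 5 FPKM, and the fatty acid arm's 0.13 without a filter. The causes were not tested. Fdps, Hsd17b7 and Scd1 enter these medians only without a filter.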
